A study of Mus musculus with 2 samples.

Results

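The small proline-rich protein genes were followed in 2 single-cell RNA libraries of healing mouse back skin. The members were the 8 rows of both count matrices with the symbols Sprr1a, Sprr1b, Sprr2d, Sprr2e, Sprr2f, Sprr2h, Sprr2i and Sprr3, of 27998 genes in all and of 15 rows whose symbol begins with Sprr. They were selected with their measured levels in these libraries in view, so their levels and ratios are given as a description and no test was made of them. The library labelled WT_LW came from wild-type C57BL/6J mice whose wound was treated with PBS by the study's methods, while a figure legend names a control oligonucleotide for this group. The library labelled TLR9agonist_LW came from wild-type mice given ODN2395, a CpG oligodeoxynucleotide agonist of TLR9, the endosomal receptor for unmethylated CpG DNA. In both, a round wound of 1.8 cm was made on the back, the treatment was given on days 0, 3 and 6, and the wound was collected 2 days after the scab came off. The mice were male adults of 6 to 8 weeks, tissue of several mice was pooled into each library, and epidermis and dermis were separated, digested and then combined. With 1 library per group there is no replicate: every difference below compares 2 pools, and treatment cannot be told apart from library, from pooled animals or from dissociation.

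Small proline-rich proteins are short, proline- and glutamine-rich precursors of the cornified envelope, the protein shell that replaces the plasma membrane of a keratinocyte as it dies at the skin surface. Transglutaminases cross-link them as bridges between larger envelope proteins such as loricrin and involucrin. Healthy interfollicular epidermis makes little of most of them, and they are known to be induced in wounded, inflamed or otherwise stressed squamous epithelium.

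The 8 genes lie together in the epidermal differentiation complex on chromosome 3. By their Ensembl identifiers they were placed on GRCm38 with GENCODE vM21, where the first is Sprr2d (ENSMUSG00000042212, chr3:92339140-92340873, plus strand). It is followed on the same strand by Sprr2e (chr3:92352143-92353449), Sprr2f (chr3:92365187-92366442), Sprr2h (chr3:92385685-92387324) and Sprr2i (chr3:92407991-92409271). Sprr1b (chr3:92436809-92438789), Sprr3 (chr3:92456502-92458720) and Sprr1a (chr3:92483952-92485895) lie beyond them on the minus strand. The deposited files give no coordinates, so these positions are those of the annotation and not of the genome build used for the counts.

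The promoters are shown because the 5 Sprr2 members share AP-1 and octamer letters there that Sprr1b and Sprr3 do not have in the window. All 8 members matched a RefSeq promoter entry on GRCm38.p6, each running from 250 bases before the transcript start. Each sequence below is a stretch of 185 bases that ends 21 bases before the start, on the strand of the gene. Capitals mark the AP-1 letters TGAGTCA on either strand, which Fos and Jun factors bind, the octamer letters ATTTGCAT on either strand, which POU factors bind, and the TATA letters TATAAA on the gene strand. The windows are chr3:92338935-92339119 for Sprr2d, chr3:92351938-92352122 for Sprr2e, chr3:92364982-92365166 for Sprr2f, chr3:92385480-92385664 for Sprr2h and chr3:92407786-92407970 for Sprr2i, all plus strand. Those of the minus strand are chr3:92485902-92486086 for Sprr1a and chr3:92438800-92438984 for Sprr1b. Sprr2b, which is no member and was chosen for contrast after its level was seen, is at chr3:92316500-92316684 on the plus strand.
Sprr2d: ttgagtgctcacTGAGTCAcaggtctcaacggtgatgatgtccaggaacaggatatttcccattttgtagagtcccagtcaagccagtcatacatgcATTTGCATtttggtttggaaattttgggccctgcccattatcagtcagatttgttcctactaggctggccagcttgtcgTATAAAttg
Sprr2e: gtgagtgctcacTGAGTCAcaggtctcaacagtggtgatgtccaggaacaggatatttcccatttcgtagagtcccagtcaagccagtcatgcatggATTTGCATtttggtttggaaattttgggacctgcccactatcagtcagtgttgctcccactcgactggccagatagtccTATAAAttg
Sprr2f: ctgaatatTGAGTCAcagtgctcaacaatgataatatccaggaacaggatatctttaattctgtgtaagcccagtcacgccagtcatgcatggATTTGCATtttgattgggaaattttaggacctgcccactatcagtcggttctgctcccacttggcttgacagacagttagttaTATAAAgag
Sprr2h: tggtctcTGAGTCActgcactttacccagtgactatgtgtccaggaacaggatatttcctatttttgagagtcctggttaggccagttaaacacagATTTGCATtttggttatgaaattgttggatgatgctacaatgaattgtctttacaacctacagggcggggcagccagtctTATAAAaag
Sprr2i: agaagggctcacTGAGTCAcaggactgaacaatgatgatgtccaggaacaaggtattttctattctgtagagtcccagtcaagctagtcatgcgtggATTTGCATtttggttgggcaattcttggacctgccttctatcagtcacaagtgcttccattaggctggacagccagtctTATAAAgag
Sprr1a: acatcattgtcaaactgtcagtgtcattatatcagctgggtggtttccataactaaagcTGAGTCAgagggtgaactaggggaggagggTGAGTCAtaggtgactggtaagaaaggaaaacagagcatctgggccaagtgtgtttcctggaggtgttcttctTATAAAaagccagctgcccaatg
Sprr1b: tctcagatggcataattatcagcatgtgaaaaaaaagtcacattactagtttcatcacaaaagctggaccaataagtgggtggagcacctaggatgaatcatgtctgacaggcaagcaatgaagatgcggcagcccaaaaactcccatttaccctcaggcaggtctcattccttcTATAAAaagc
Sprr2b: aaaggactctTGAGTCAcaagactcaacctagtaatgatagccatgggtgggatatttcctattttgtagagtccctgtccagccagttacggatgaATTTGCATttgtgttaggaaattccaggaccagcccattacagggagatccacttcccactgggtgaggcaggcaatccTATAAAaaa

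The AP-1 letters stood in 6 of 8 member promoters and in 4.46% of 32851 promoters of the same length. The octamer letters stood in 5 of 8 members, the 5 Sprr2 genes, and in 1.60% of all promoters. Both were found together in those 5 members and in 37 promoters of the whole table, or 0.113%. In Sprr2d, Sprr2e and Sprr2i the AP-1 letters began 193 bases and the octamer letters 108 bases before the start, and in Sprr2f and Sprr2h each lay within 5 bases of those places. Sprr1a held the AP-1 letters at 2 places and no octamer, and Sprr1b and Sprr3 held neither. The TATA letters stood in all 8 members and in 7.59% of all promoters. Other letters searched on both strands were the Ets letters AGGAAGT in 1 of 8 members, Sprr3, and in 7.69% of promoters, the Klf letters GGGTGTG in 0 of 8 and 6.93%, and the Grhl letters AACCGGTT in 0 of 8 and 0.116%. Sprr2b held AP-1 and octamer letters at nearly the same places as Sprr2d, although its level did not move with Sprr2d, as given below. Sprr2k, also no member, held both near those places too, and its level was higher in TLR9agonist_LW. The windows of Sprr2d and Sprr2e were identical at 90.8% of positions. A match is a stretch of letters and no bound site, and a missing match says only that these letters are not in the window.

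The deposited matrices held 12800 WT_LW and 13751 TLR9agonist_LW cells with 99374045 and 132339022 UMIs. After filters and doublet removal 10395 and 11811 cells were used, at a median of 5519 and 6080 UMIs, and 47 barcodes occurred in both libraries. Keratinocytes, gated on 17 markers with no Sprr gene among them, were 561 and 1406 cells, or 5.40% and 11.9% of cells, at a median of 11412 and 21487.5 UMIs. Their marker list summed to 66754 and 58990 CPM (UMIs per 1000000 UMIs of the cells), against 799 and 2548 in all other types, and the T and NK cell list was at 47.6 and 33.4 CPM within them. The median gene of keratinocytes, over 8289 genes with at least 200 UMIs, was at a log2 ratio of −0.41, so ratios read from CPM sit that far below a scaling to the median gene. Sprr UMIs were also present in cells that should not make them, far more so in TLR9agonist_LW. The summed level in T and NK cells was 18.1 CPM for WT_LW against 567 for TLR9agonist_LW, and those values are set beside the results they touch.

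In keratinocytes the summed level of the 8 genes was 1259 CPM in WT_LW (95% exact Poisson interval 1236 to 1282) and 6239 in TLR9agonist_LW (6211 to 6268), a 4.96-fold ratio (4.87 to 5.05). Here and below, levels are UMIs of a gene per 1000000 UMIs of the cells named, or CPM, ratios are TLR9agonist_LW over WT_LW with exact 95% intervals, and all intervals cover counting error only. All 7 members with any UMI were higher in TLR9agonist_LW, and the order of the ratios ran from Sprr1b, the lowest, to Sprr2f, the highest. The counts are of 3′ ends and were not set per length, so levels are compared between libraries and cells within a gene and not between genes.

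Of the Sprr1 genes, whose proteins are longer than those of the Sprr2 genes, Sprr1a was at 278 CPM in WT_LW (267 to 289) and 1476 in TLR9agonist_LW (1463 to 1490), a ratio of 5.32 (5.11 to 5.53). Sprr1b was at 549 (535 to 565) and 1150.1 CPM (1138 to 1162), a ratio of 2.09 (2.03 to 2.16). The 2 genes, neighbours on the same strand with Sprr3 between them, thus differed in ratio by more than their counting intervals.

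Among the Sprr2 genes, whose proteins are shorter and which form a tandem array, Sprr2d went from 285 CPM in WT_LW (275 to 296) to 1799 in TLR9agonist_LW (1784 to 1814), a ratio of 6.31 (6.07 to 6.56). Sprr2h, at 56.1 and 310.4 CPM, and Sprr2i, at 46.7 and 245 CPM, had ratios of 5.53 (5.07 to 6.05) and 5.25 (4.77 to 5.79), close to that of Sprr1a. Sprr2e was at 24.1 (21.1 to 27.5) and 288 CPM (282 to 294), a ratio of 11.9 (10.5 to 13.7). Sprr2f stood apart from all of these. It had 185 UMIs in WT_LW keratinocytes and 28900 in TLR9agonist_LW keratinocytes, which is 19.6 (16.9 to 22.6) and 970.1 CPM (959 to 981) and a ratio of 49.5 (42.9 to 57.5). Ordered by ratio among the 8289 genes with at least 200 UMIs, Sprr2f was at place 2, Sprr2e at place 8, Sprr2d at 23, Sprr2h at 26, Sprr1a at 27, Sprr2i at 30 and Sprr1b at 173. Sprr3, known mainly from esophagus and other internal squamous epithelia, had 0 UMIs in the keratinocytes of both libraries, which allows up to 0.318 and 0.101 CPM.

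Across 11181 genes with at least 50 keratinocyte UMIs, 2.43% had a log2 ratio of 1 or more and 16.7% one of −1 or less. All 7 members counted were at 1 or more, but the members were chosen on this contrast, so nothing is read from that count. Giving each keratinocyte equal weight, in place of weight by its UMIs, lowered the log2 ratio of the sum from 2.31 to 1.67, while leaving out the 10 richest cells of each library raised it to 2.75. Under equal weight Sprr2i moved from 2.39 to 1.002 and Sprr1b from 1.07 to 0.56, and scaling to the median gene put the sum at 2.72.

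**Figure D1:**
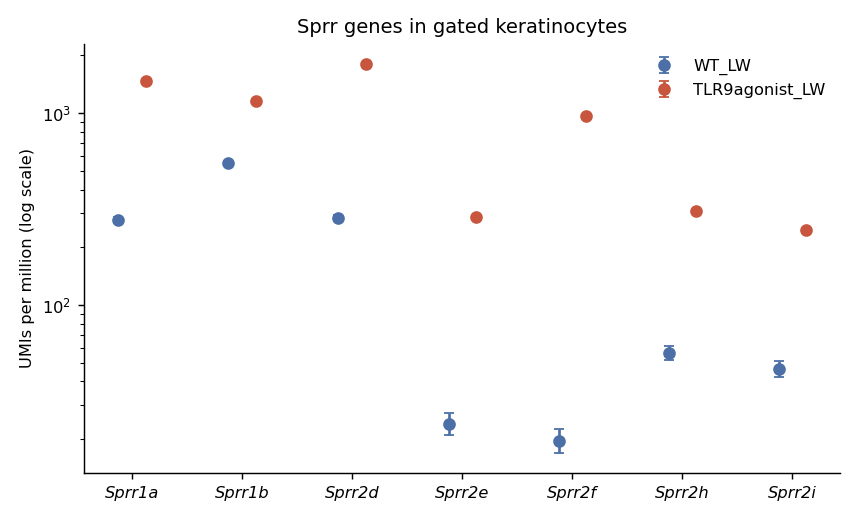
Levels of the 7 members with any UMI in gated keratinocytes, as CPM on a log scale, for WT_LW (561 cells) and TLR9agonist_LW (1406 cells); bars are exact 95% Poisson intervals for counting error only. Each gene is higher in TLR9agonist_LW, with Sprr2f furthest apart (19.6 and 970.1) and Sprr1b closest (549 and 1150.1).

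The makeup of the family differed too. Sprr1b held 43.6% of the Sprr UMIs of WT_LW keratinocytes and 18.4% of those of TLR9agonist_LW. Sprr2f held 1.56% and 15.5%, Sprr2e 1.92% and 4.61%, and Sprr2d 22.7% and 28.8%. Sprr1a (22.1% and 23.7%), Sprr2h (4.46% and 4.98%) and Sprr2i (3.71% and 3.93%) kept nearly their place. Sprr1b and Sprr2f thus differed most in share.

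The other rows of the family did not all follow the members. Sprr2k, beside the Sprr2 members in the array, was at 5.93 and 44.9 CPM (7.57-fold), and the pseudogene Sprr2j-ps at 16.9 and 68.5 (4.04-fold). Sprr2a3 was at 271 and 192 CPM, a ratio of 0.71, and Sprr2b at 24.7 and 15.8, a ratio of 0.64, both lower in TLR9agonist_LW and both before Sprr2d in the array. Their log2 ratios, −0.50 and −0.64, lay near the −0.41 of the median gene. Sprr2a1 was at 5.08 and 4.77 CPM and Sprr2a2 at 2.96 and 3.19. These and Sprr2a3 are uncertain, because the last 500 bases of the Sprr2a1 and Sprr2a2 transcripts share all of their 90-base words with another Sprr gene and those of Sprr2a3 share 42.3%. No 90-base word at the end of a member's transcript occurs in another Sprr gene. Sprr4 had 2 and 3 UMIs.

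Keratinocytes were then divided by fixed markers into 8 subsets. Cells with at least 3 cycling markers detected were called cycling whatever else they held, and each other cell went to the subset whose markers it held most strongly. They were basal, differentiated suprabasal, granular, wound-activated, upper hair follicle, bulge, cycling and lipid-making cells. The lipid-making gate held only 8 and 4 cells and is not described, and 8 and 17 cells met no subset. Differentiated suprabasal cells, with 147 WT_LW and 471 TLR9agonist_LW cells at a median of 20063 and 21024 UMIs, differed widely between libraries. Their summed level was 774 and 8363 CPM, a ratio of 10.8 (10.4 to 11.3). The cells of the gate were unlike in the 2 libraries. Among Leiden clusters made without the Sprr genes, cluster 9 held 49 of the 147 WT_LW cells and 2 of the 471 TLR9agonist_LW cells. Clusters 0 and 1 held 0 and 1 against 100 and 84. By their highest markers clusters 0 and 1 were wound-activated, and clusters 2, 3 and 9 were differentiated suprabasal. The TLR9agonist_LW cells of this gate in clusters 0 and 1 were at a summed 7747 and 10862.5 CPM. Within cluster 3, with 25 and 59 cells of the gate, the sum was 826 and 1544 CPM, within cluster 2, with 4 and 95, it was 5645 and 12896, and within cluster 9 it was 381 and 186. The gate as a whole held 18.8% of all keratinocyte Sprr UMIs in WT_LW and 40.3% in TLR9agonist_LW. Within them Sprr2f was at 15.9 and 1316 CPM (82.6-fold), Sprr2e at 7.62 and 331 (43.4-fold), and Sprr1a at 167 and 2237 (13.4-fold). Sprr2d (16.4-fold) and Sprr2h (16.7-fold) lay close to Sprr1a. Sprr2i was at 14.6-fold, but 1 WT_LW cell held 48 of its 57 UMIs, and without the richest cell of each library its log2 ratio was 6.41, against 3.90 for Sprr1a. Sprr1b was lowest at 402 and 1534 CPM (3.82-fold). With keratinocytes and subsets taken from Leiden clusters in place of the gates, the WT_LW share of this subset was 38.6% and the TLR9agonist_LW share 43.1%, so the difference in share between libraries depends on how the subset is drawn.

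Wound-activated keratinocytes, gated on genes of the stressed, migrating edge, held 46.6% and 46.2% of keratinocyte Sprr UMIs in 97 and 391 cells. Their summed level was 3941 CPM in WT_LW and 9380 in TLR9agonist_LW, a ratio of 2.38 (2.32 to 2.45), and 1.25 on the log2 scale against 0.55 with each cell given equal weight. In pooled UMIs Sprr1b was level between the libraries there, at 1813 CPM in both (log2 ratio 0.00016, interval −0.06 to 0.06). The median cell held 9 and 30 Sprr1b UMIs, at the unlike depths given below. Equal weight per cell was not run for single genes in this subset. Sprr1a was at 454 and 1751 CPM (3.86-fold), Sprr2d at 1180 and 3086 (2.62-fold) and Sprr2f at 57.7 and 1374 (23.8-fold). In this subset the cells of WT_LW were far shallower, at a median of 4591 UMIs against 25564, and the part of depth in these ratios was not tested. The gate also held unlike cells, since 44 of 97 WT_LW cells lay in Leiden cluster 7 against 18 of 391. Clusters 0, 1 and 12 held 2, 2 and 4 against 86, 76 and 73. By its highest markers cluster 7 was granular, while clusters 0, 1 and 12 were wound-activated. Within cluster 7 the sum was 6882 and 9302 CPM.

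Cells in the granular gate, 27 in WT_LW and 14 in TLR9agonist_LW, had the highest summed levels of any subset in both libraries, 8469 and 22397 CPM. In WT_LW they carried the granular layer genes Lor, at 12222 CPM, Flg at 15292, Flg2 at 455 and Hrnr at 1816. The TLR9agonist_LW cells had Lor at 2.46, Flg at 808, Flg2 at 0 and Hrnr at 9.83 CPM, which goes against the name, so the comparison sets unlike cells side by side. Sprr1b was lower there in TLR9agonist_LW, at 4050.4 and 2036 CPM (ratio 0.503), while Sprr1a (4.51-fold), Sprr2e (9.88-fold) and Sprr2d (1796 and 5033 CPM, 2.80-fold) were higher. The WT_LW cells were also shallower, at a median of 6437 UMIs against 34846. A single WT_LW cell held 1038 of the 2141 Sprr UMIs of the gate, and a single TLR9agonist_LW cell 2701 of 9118. Without the richest cell of each library the sums fell to 5110.1 and 17477 CPM, and the log2 ratio of Sprr1b was −0.76 in place of −0.99. Those of Sprr1a, Sprr2e and Sprr2d were then 3.19, 5.11 and 2.19. The richest WT_LW cell held 176 of 281 Sprr1a and 47 of 55 Sprr2e UMIs. All 5 Sprr2f UMIs of the WT_LW gate were in that cell, against 2039 Sprr2f UMIs in the 14 TLR9agonist_LW cells, 700 of them in 1 cell.

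Upper hair follicle keratinocytes had Sprr1a with little Sprr2. The 89 WT_LW cells held 1100 Sprr1a UMIs (953 CPM) and 254 Sprr1b UMIs, 7 of Sprr2h, and 0 of Sprr2d, Sprr2e, Sprr2f and Sprr2i, where 3 UMIs would be 2.60 CPM. The 85 TLR9agonist_LW cells were at 2883 CPM of Sprr1a (3.02-fold) and 764 of Sprr1b (3.47-fold). Sprr2d had 202 UMIs there, or 131 CPM and 2.38 a cell, against 176 CPM and 0.891 a cell in T and NK cells and 77.8 CPM and 1.03 a cell in fibroblasts of the same library. It was thus on either side of the background by the measure taken, and 1 cell held 162 of the 318 Sprr2f UMIs. Among cells with at least 10 UMIs of Sprr1a and Sprr2d together, Sprr1a was at least 10 times Sprr2d in 19 of 19 WT_LW and 47 of 55 TLR9agonist_LW upper follicle cells, and the reverse held in 0. In wound-activated cells the same count gave 1 of 38 and 4 of 318 for Sprr1a and 13 and 32 for Sprr2d. In both libraries, upper follicle cells thus held Sprr1a largely without Sprr2d.

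Basal and cycling keratinocytes were low. Basal cells, 107 and 247 in number, were at a summed 169 and 1128 CPM (6.66-fold, 5.92 to 7.52), and cycling cells, 64 and 161, at 167 and 828 (4.97-fold). The basal gate held unlike cells in the 2 libraries. Leiden cluster 6 held 56 of its WT_LW and 46 of its TLR9agonist_LW cells, cluster 4 held 3 and 114, and cluster 0 held 0 and 19. Within cluster 6 the sum was 62.4 and 243 CPM, and within cluster 4 it was 3409 and 816. With the T and NK cell level in CPM subtracted, as a measure of free RNA, the log2 ratios went from 2.74 to 1.89 in basal and from 2.31 to 0.81 in cycling cells. That subtraction takes more UMIs per cell off deep cells. In TLR9agonist_LW the basal and cycling medians were 19273 and 27185 UMIs, against 4582 in T and NK cells. There 247 basal cells held 5271 Sprr UMIs and 161 cycling cells 3897, against 9856 in 3443 T and NK cells. The mean per cell was thus higher in both than in T and NK cells. The median basal and cycling cell held 6 and 7 Sprr UMIs, and the richest 10% held 61.2% and 55.8%. T and NK cells of 8000 UMIs or more held a mean of 3.60. The part of free RNA in these values was not tested. One WT_LW basal cell held 188 of the 295 Sprr UMIs of its subset, and without the richest cell of each library the basal log2 ratio was 4.11. Sprr2f in basal cells had 1 UMI in WT_LW and 1535 in TLR9agonist_LW, where 27 of 247 cells held 10 or more and 23 of the 27 held more Sprr2f than Sprr2d. No T or NK cell of either library held 10 Sprr2f UMIs. The bulge subset, with 14 and 16 cells and 23 and 233 Sprr UMIs, was too small to read, since 1 cell held 67 of its 82 TLR9agonist_LW Sprr2d UMIs.

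**Figure D2:**
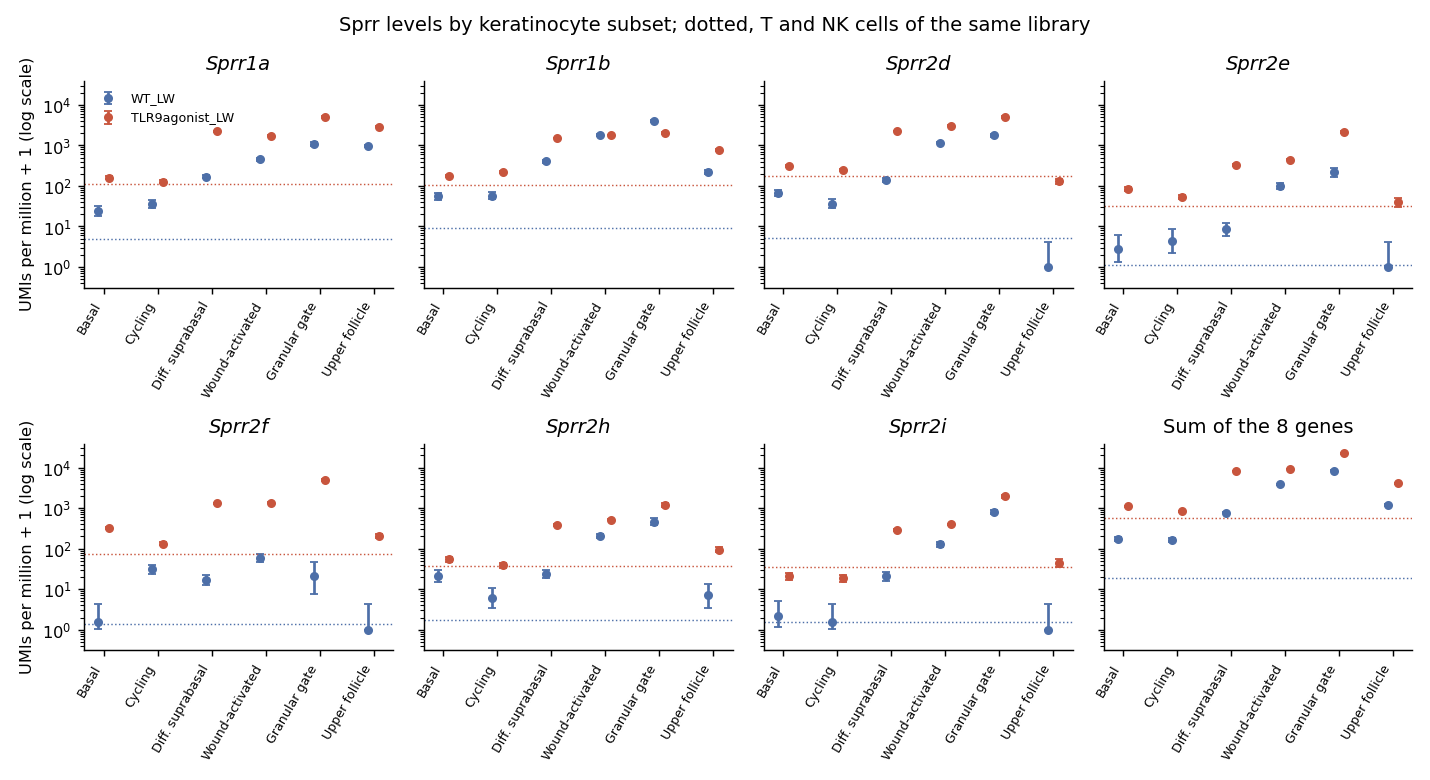
Levels by keratinocyte subset, as CPM plus 1 on a log scale, 1 panel per gene and 1 for the sum, with exact 95% Poisson intervals; dotted lines are the level in T and NK cells of the same library. The sum differs widely in differentiated suprabasal cells (774 and 8363), and in pooled UMIs Sprr1b is level in wound-activated cells (1813 in both).

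The subsets were also replaced by a scale of differentiation that uses no Sprr gene, the log2 ratio of Krt1 and Krt10, the keratins of suprabasal cells, to Krt5 and Krt14, the keratins of basal cells. Over 7 steps of this scale, with 43 to 123 WT_LW and 116 to 359 TLR9agonist_LW cells in each, the summed level went from 528 to 11805 CPM in TLR9agonist_LW, higher at every step. In WT_LW it went from 174 to 1927 CPM by the fourth step and stayed between 1747 and 2089.6 from there. Sprr1b was at 101 and 105 CPM at the most basal step, where the intervals overlap (85.9 to 117 and 93.6 to 117), and at 893 and 1763 at the most suprabasal. In T and NK cells Sprr1b was at 8.40 and 106 CPM. In CPM its TLR9agonist_LW value at the most basal step thus did not exceed theirs, and neither did the 528 of the sum against their 567. As a mean per cell, both were above the T and NK cells. The 116 cells of this step held 326 Sprr1b and 1645 Sprr UMIs, against 1839 and 9856 in 3443 T and NK cells. The part of free RNA in these values was not tested. Sprr2f was between 0 and 45.8 CPM over all WT_LW steps and went from 116 to 1999 in TLR9agonist_LW.

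**Figure D3:**
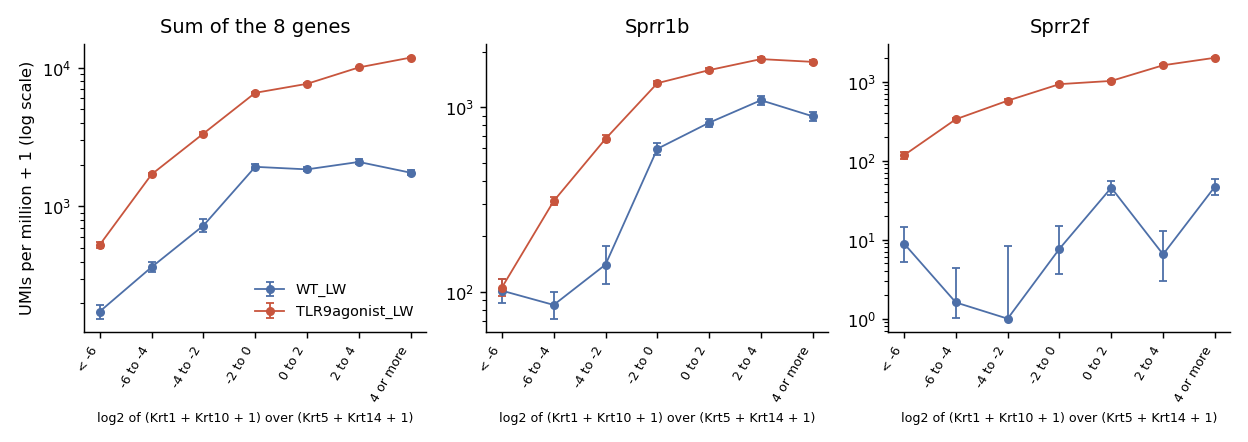
Levels along the keratin scale, as CPM plus 1 on a log scale; the horizontal axis is the log2 ratio of Krt1 and Krt10 to Krt5 and Krt14 UMIs in 7 steps, points are the pooled cells of a step in each library and bars are exact 95% Poisson intervals. The sum reaches 11805 in TLR9agonist_LW at the last step against 1747 in WT_LW.

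In counts that were not thinned, Sprr UMIs were unevenly spread over cells, more so in WT_LW. Keratinocyte depth and the Sprr level in T and NK cells were both higher in TLR9agonist_LW, and their part in this was not tested. The richest 10% of keratinocytes, 56 and 141 cells, held 75.4% of the Sprr UMIs in WT_LW and 52.0% in TLR9agonist_LW. The median keratinocyte held 1 and 40 Sprr UMIs, and 227 of 561 and 19 of 1406 held none. For Sprr2i the richest 10% held 94.4% of the UMIs even in TLR9agonist_LW, against 46.2% for Sprr1b, so in that library Sprr2i was the most concentrated member and Sprr1b the least. In WT_LW the richest 10% held all UMIs of Sprr2e, Sprr2f and Sprr2i alike.

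To compare shares of cells at 1 depth, each cell was thinned to 1500 UMIs, which left out 61 WT_LW and 151 TLR9agonist_LW keratinocytes. At that depth 38.2% of 500 WT_LW keratinocytes (exact binomial interval 33.9 to 42.6) and 79.3% of 1255 TLR9agonist_LW keratinocytes (76.9 to 81.5) held a Sprr UMI, and without thinning the shares were 59.5% and 98.6%. T and NK cells, at a median of 4292 and 4582 UMIs, were at 2.49% and 58.8% after thinning, so each TLR9agonist_LW share is set against that background. Sprr2f was held by 1.20% and 38.4% of keratinocytes, with 0% and 11.2% in T and NK cells, and Sprr1a by 14.0% and 54.3%, with 0.368% and 16.1%. Sprr1b was held by 26.8% and 55.0%, and Sprr2d by 13.0% and 55.5%, with 15.5% and 24.5% in the T and NK cells of TLR9agonist_LW. Shares of Sprr2e (2.20% and 20%), Sprr2h (6.20% and 26.1%) and Sprr2i (3.00% and 11.2%) were lower, each above its share in T and NK cells. Sprr3 was found in 0 of 561 and 0 of 1406 keratinocytes, which allows up to 0.535% and 0.213%.

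Differentiated suprabasal cells with a Sprr UMI made up 43.4% in WT_LW and 91.6% in TLR9agonist_LW, wound-activated cells 86.2% and 96.0%, and upper hair follicle cells 36.4% and 82.1%. Basal (4.90% and 48.1%) and cycling cells (7.81% and 41.0%) were below the 58.8% of T and NK cells in TLR9agonist_LW, but above the 37.1% of its fibroblasts, whose median of 12690 UMIs is nearer to theirs. Thinning dilutes a fixed number of UMIs per cell more in deep cells, so these TLR9agonist_LW shares are not read as expression or as background. In WT_LW each of these 5 subsets had a higher share than the 2.49% of T and NK cells, although the interval of basal cells (1.61 to 11.1) includes it.

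**Figure D4:**
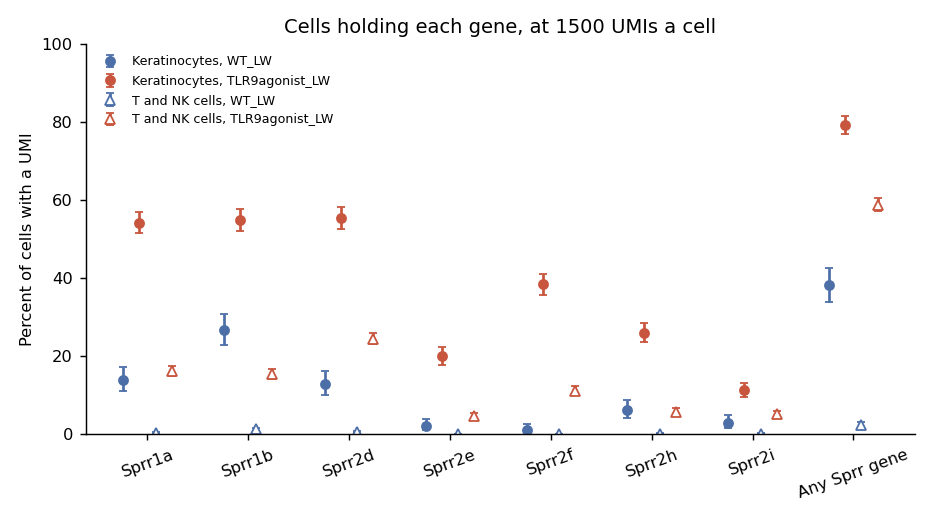
Percent of cells with at least 1 UMI of each gene after thinning every cell to 1500 UMIs, for keratinocytes (filled) and T and NK cells (open) of both libraries, with exact 95% binomial intervals. Keratinocytes of TLR9agonist_LW lie above its T and NK cells for all 7 detected members, for example 38.4% against 11.2% for Sprr2f.

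Outside keratinocytes, 7 cell types had at least 100 cells in both libraries. Their summed Sprr level was between 8.85 and 21.0 CPM in WT_LW and between 268, in fibroblasts, and 638, in mast cells, in TLR9agonist_LW. Keratinocytes held 87.5% of all Sprr UMIs of the cells used in WT_LW and 84.1% in TLR9agonist_LW. In TLR9agonist_LW the makeup hardly differed between those 7 types, with Sprr1a at 17.8% to 20.9% of their Sprr UMIs, Sprr1b at 17.3% to 20.2%, Sprr2d at 29.0% to 31.4% and Sprr2f at 13.1% to 14.9%. These are near the shares of TLR9agonist_LW keratinocytes given above. T and NK cells of that library held 1.99 Sprr UMIs each in cells below 2000 UMIs and 3.60 in cells of 8000 or more, so that the level went from 1264 to 301 CPM as depth rose. Subtracting the T and NK level in CPM, which takes more UMIs per cell off deep cells, lowered the log2 ratio of the keratinocyte sum to 2.19.

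Fibroblasts of WT_LW differed from the other types in makeup. Sprr1a made up 52.2% of their Sprr UMIs, with 130 Sprr1a and 32 Sprr2d UMIs over 974 cells, where keratinocytes of that library had 2623 and 2694. Of the 130, 88 were in 9 cells with 5 or more, and the most in 1 cell was 18. Krt5, Krt14, Krt10 and Krt1 together were at 278 CPM in the WT_LW fibroblasts holding Sprr1a and at 312 in the rest. In TLR9agonist_LW 13 of 2433 fibroblasts held 5 or more Sprr1a UMIs, 145 of 1814 in all.

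**Figure D5:**
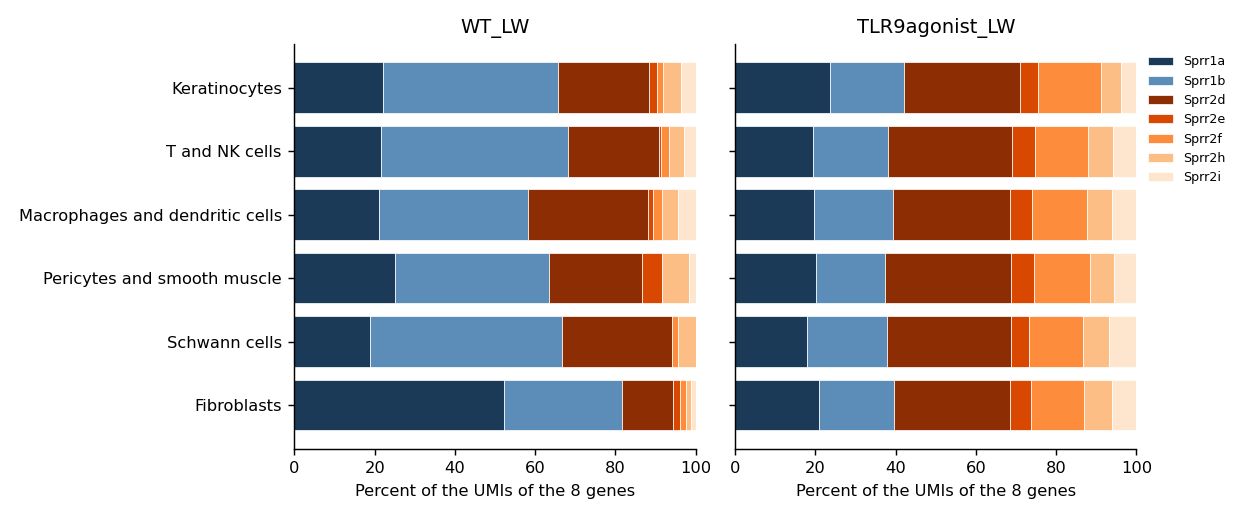
Percent of the UMIs of the 8 genes held by each gene in 6 cell types, 1 panel per library; segments of a bar sum to 100% and no error is drawn. The TLR9agonist_LW bars are nearly alike across these types, and in WT_LW the fibroblast bar has the most Sprr1a (52.2%).

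Lists of genes that work with the family were counted in keratinocytes beside the background of all 11181 genes, whose median log2 ratio was −0.47. Of all those genes 2.43% were at a log2 ratio of 1 or more and 16.7% at −1 or less. Of 34 other cornified envelope genes 23 had enough UMIs, 5 were at a log2 ratio of 1 or more and 8 at −1 or less, with a median of −0.24 that becomes 0.17 when scaled to the median gene. Krtdap (0.07), Dmkn (−0.13) and Cst6 (−1.03), a cathepsin inhibitor, held most UMIs. The 5 genes at 1 or more, named after their values were seen, were all late cornified envelope genes of the Lce3 group. Lce3f went from 1.48 to 58.0 CPM (log2 5.29), and Lce3d from 4.87 to 48.1 (3.31), and the others were Lce3c (2.75), Lce3e (5.30, from 3 WT_LW UMIs) and Lce3a (3.55, from 2). On the other side, loricrin (Lor), the main envelope protein of healthy epidermis, was at 331 and 2.38 CPM (−7.12), filaggrin (Flg) at 459 and 19.0 (−4.59) and Hrnr at 49.0 and 0.168 (−8.19). Involucrin (Ivl), an early scaffold of the envelope, was at 35.9 and 37.4 CPM (0.06).

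Of 16 cross-linking and processing enzymes 0 were at 1 or more and 3 at −1 or less, with a median of −0.31, or 0.10 when scaled, where all genes had 2.43% and 16.7% past these limits. Asprv1 (0.45), Klk7 (−0.78) and Klk8 (−0.74), proteases of the upper epidermis, held most UMIs. Tgm1, the membrane transglutaminase that cross-links envelope precursors, was at 29.7 and 56.2 CPM (0.92), and was named after its value was seen. The 24 transcription factors known to act on Sprr genes or on terminal differentiation had 4 at 1 or more and 2 at −1 or less, with a median of −0.02, or 0.39 when scaled. Jun (−0.16), Klf4 (0.32) and Junb (0.02) held most UMIs. Among the 4 were Grhl3 (1.70), Ehf (1.51) and Elf3 (1.47), and the 2 were the AP-1 genes Fos (−1.39) and Fosb (−1.26). Fosl1, another AP-1 gene, was at 77.2 and 124 CPM (0.68).

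Of 10 targets of Nrf2, the oxidative stress factor, 2 were at 1 or more and 1 at −1 or less, where all genes had 2.43% and 16.7%. Their median was 0.16, or 0.57 when scaled, and Gsta4 (1.38), Hmox1 (0.72) and Gclm (−0.31) held most UMIs. Of 15 wound stress genes 6 were at 1 or more and 1, Il36a (−1.80), at −1 or less, beside the same 2.43% and 16.7%. Their median was 0.84, or 1.25 when scaled. S100a9 was at 1878 and 8481 CPM (2.17), S100a8 at 1713 and 7972 (2.22), and Krt16, the keratin of activated epidermis, at 4261 and 5341 (0.33). These are the same keratinocytes as those of the Sprr levels, so the lists describe the libraries and are no independent support for the family.

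Across 14 points, each 1 of 7 subsets in 1 library, the genes whose level followed the summed Sprr level most closely among 8278 genes were Ugcg, which makes glucosylceramide for the skin barrier (Pearson r 0.96), Lypd3 (0.92), Arrdc4 (0.92), Tmem125 (0.92) and Zdhhc13 (0.92). Lypd3 is one of the markers used for the gate. Among the members, r was highest for Sprr2h with Sprr2i (0.97) and lowest for Sprr1a with Sprr2d (0.56). The points share 2 libraries, their depth and the same gates, so these values describe likeness only.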

How the data were processed

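Cells of 2 pooled wound libraries were profiled from RNA 3′ ends on the 10x Genomics platform. The deposited matrices hold raw counts, which the authors made as whole UMIs per gene for the cells called in each library. The file header names cellranger 4.0.0, and the submitters' processing notes name fastp, Cell Ranger, Seurat and the build mm9. The kit version is not given in the sources used here. The study describes the number of pooled mice and the control treatment in more than 1 way, and PBS is the control its methods name for WT_LW.

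Cells with at least 500 UMIs, 300 genes and at most 15% mitochondrial UMIs were kept (11443 and 13206), and 1048 and 1395 with the highest Scrublet doublet scores (scanpy 1.11.5, 0.8% per 1000 cells) were removed. Keratinocytes had at least 1.5% of UMIs in 17 markers with at least 6 detected. Those with at least 3 cycling markers detected went to the cycling subset first. The others went to the subset with the highest mean standardized marker level among those with at least 3 markers detected. Members, lists and markers were chosen with earlier results of these data known, and gate limits after marker shares were seen. Levels are UMIs per 1000000 UMIs (CPM) of a library's pooled cells with exact Poisson intervals, shares have Clopper-Pearson intervals and ratios exact intervals given the total count, all at 95%. A count of 0 was taken to allow 3 counts. Each group is 1 library, so no test was made. All Sprr rows were named, and in each list the 3 genes with most keratinocyte UMIs. One listed gene is not reported here. Lists counted genes with at least 50 UMIs past a log2 ratio of 1 either way. Likeness was Pearson's r of log2 (CPM plus 10) over subsets of at least 10 cells. Alternatives were a stricter cell filter, doublets kept, a doubled gate limit, Leiden clusters (leidenalg 0.10.2), leaving out the 10 richest cells, equal weight per cell, scaling to the median gene, subtracting the T and NK level and equal subset shares. For single subsets, leaving out the richest cell, equal weight and subtraction were added after the data were seen. Intervals came from scipy 1.17.1 under Python 3.11.15, tables from pandas 2.3.3 with numpy 2.4.6, and plots from matplotlib 3.10.9. Ratios and thinning were tested on simulated Poisson counts, which lack the uneven spread of UMIs over cells seen here.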

Additional observations from a re-analysis of the deposited data

Results flagged for a closer look

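In pooled UMIs Sprr1b was lower in TLR9agonist_LW in the granular gate and higher in most other keratinocyte subsets. Its log2 ratio of TLR9agonist_LW to WT_LW was −0.99 in the granular gate, against 1.66 in basal, 1.93 in differentiated suprabasal, 1.80 in upper hair follicle, 2.83 in bulge and 1.95 in cycling keratinocytes, and it was level in wound-activated cells. Each group is 1 library, so the difference between subsets was not tested. The granular gate held 27 and 14 cells, those of TLR9agonist_LW had almost no Lor, and without the richest cell of each library the granular value was −0.76. Of the 27 WT_LW cells, 3 held 60.5% of the Sprr1b UMIs of the gate, so the pooled value may not describe its typical cell. The basal value was 3.09 and the cycling value 2.94 without the richest cells. With the T and NK level in CPM subtracted the ratios were 1.46-fold in basal and 2.33-fold in cycling cells, a subtraction that takes more UMIs per cell off deep cells. The bulge value rests on 5 WT_LW UMIs.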

How the results depend on the processing

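The log2 ratio of the summed Sprr level in keratinocytes, 2.31 as reported, was above 0 under every alternative run. It was 2.37 with the stricter cell filter, 2.41 with doublets kept, 2.34 with the stricter gate, 2.38 with Leiden clusters and 2.75 without the 10 cells with most Sprr UMIs. It was 1.67 with equal weight per cell, 2.72 scaled to the median gene, 2.19 with the T and NK level subtracted and 1.97 with equal subset shares. For single members, all 63 values over 7 members and 9 alternatives were above 0, from 0.56 to 6.04, and the cause of the movement was not tested. The difference in the share of cells with a Sprr UMI, 41.1 percentage points, stayed within its interval. None of the alternatives run for this share took off free RNA. The share in T and NK cells differed even more widely between the libraries, as given above, so the part of free RNA in this difference was not tested. The differentiated suprabasal share of Sprr UMIs in WT_LW was 18.8%, and 20.1% with the stricter filter, 19.5% with the stricter gate, 38.6% with Leiden clusters and 22.5% without the 10 richest cells. In TLR9agonist_LW it was 40.3%, and 40.0%, 40.6%, 43.1% and 43.1% in the same order. Of the gated keratinocytes 74 and 168 lay outside the keratinocyte clusters, at a median of 1541 and 818 UMIs. No paired analysis was possible because each group is 1 library. Values limited by few cells are those of the granular and bulge subsets, with 14 to 27 cells.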
